A study of Mus musculus with 12 samples.

Results

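The genes described here are 9 interferon-inducible GTPases of the mouse: the guanylate-binding proteins Gbp2, Gbp3, Gbp6 and Gbp7, and the immunity-related GTPases Igtp, Irgm1, Irgm2, Iigp1 and Tgtp1. They were chosen by symbol, with earlier results of these data known. All 9 were found among the 19252 genes of the deposited gene table. All 9 also passed the floor for testing, 1 TPM in at least 4 of the 12 libraries, as did 11376 genes in all. TPM, the unit of the tables, is a transcript's share of the library after division by length. Liver RNA of C57BL/6 mice was sequenced from 3 groups of 4 libraries. NAC_HFD mice ate a high fat diet and drank water with N-acetylcysteine, a cysteine precursor, at 2 g per litre; HFD mice had the high fat diet without it, and NFD mice a normal fat diet. The labels give 14 weeks of feeding and an age of 8 weeks for every library, without saying at which point the age was taken. They do not say whether each library came from its own animal, so the p-values measure the spread between these libraries. TPM keep no read depth, so the depth of each library is unknown and no counting interval was given.

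Interferon-inducible GTPases are enzymes of cell-autonomous immunity, made by most cell types after interferon gamma and, for many of them, after type I interferon. Guanylate-binding proteins are large dynamin-like GTPases that assemble on the membranes of bacteria and of the vacuoles that hold them, and they promote inflammasome activation. Immunity-related GTPases fall into effectors, such as Iigp1 and Tgtp1, which load onto pathogen vacuoles and disrupt them, and the regulators Irgm1, Irgm2 and Igtp, which sit on the cell's own membranes and hold the effectors in an inactive state. Interferon gamma acts mainly through GAS elements in the promoters of its target genes, and type I interferon through ISRE elements. In mouse liver, Iigp1 is also known to be transcribed without infection from a promoter of its own.

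The upstream sequences of these genes are shown because letter patterns of both elements lie close to the gene starts. RefSeq windows of build GRCm38.p6, from 250 bases before to 50 bases after an annotated start, were matched for 7 members by symbol, Gbp3 with 2 windows. No window of Gbp6 or Iigp1 was used. The ISRE-like pattern, GAAA and GAAA with any 2 bases between them, and the GAS-like pattern TTCNNNGAA were searched on both strands. The next 4 sequences are the 120 bases before the annotated start, written 5′ to 3′ on the strand of the gene, with matches to either pattern in capitals. They stand at chr3:142620543-142620662 (plus strand) for Gbp2, chr3:142530216-142530335 (plus strand) for Gbp7, chr11:58199436-58199555 (plus strand) for Igtp and chr11:58214857-58214976 (plus strand) for Irgm2.
Gbp2: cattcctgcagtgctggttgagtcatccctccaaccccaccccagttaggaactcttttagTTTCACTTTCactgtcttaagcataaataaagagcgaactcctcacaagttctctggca
Gbp7: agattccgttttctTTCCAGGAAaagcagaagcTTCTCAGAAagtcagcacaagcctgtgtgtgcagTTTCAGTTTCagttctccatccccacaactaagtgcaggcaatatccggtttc
Igtp: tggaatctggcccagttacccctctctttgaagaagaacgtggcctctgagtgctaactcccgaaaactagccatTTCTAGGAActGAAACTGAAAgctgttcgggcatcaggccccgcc
Irgm2: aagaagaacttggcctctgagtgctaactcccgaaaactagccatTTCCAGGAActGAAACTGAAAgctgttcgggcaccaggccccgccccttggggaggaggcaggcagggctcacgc

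All 7 members with a window held an ISRE-like match, in 7 of their 8 windows, against 3.44% of the 32851 windows in the table. With the windows of other listed interferon-inducible GTPases added, 13 of 17 held one. A GAS-like match stood in 4 of the 7 members (Gbp7, Igtp, Irgm2 and Tgtp1), against 8.30% of all windows, and 0.454% of all windows held both patterns. In Igtp, Irgm2 and Tgtp1 the GAS-like match ended 2 bases before the ISRE-like match, which gives a joined site of 21 bases. Only 5 of the 32851 windows (0.0152%) held such a joined site, and these 5 include the windows of the 3 members. Tgtp2, a near-identical paralog of Tgtp1 outside the members, had a GAS-like match at -81 and an ISRE-like match at -70. This is the same spacing as in Tgtp1, at -88 and -77, so the arrangement was not particular to the members. The 3 sites are printed on the strand of each gene, with both matches in capitals, at chr11:48992314-48992334 (minus strand) for Tgtp1, chr11:58199511-58199531 (plus strand) for Igtp and chr11:58214902-58214922 (plus strand) for Irgm2.
Tgtp1: TTCCAGGAAtcGAAACTGAAA
Igtp: TTCTAGGAActGAAACTGAAA
Irgm2: TTCCAGGAActGAAACTGAAA
Igtp and Irgm2, which lie close together on chromosome 11, had 20 of the 21 bases in common. Tgtp1 had 18 in common with Igtp and 19 with Irgm2. These are matches of letters in one window per start and say nothing of binding in these livers.

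**Figure D1:**
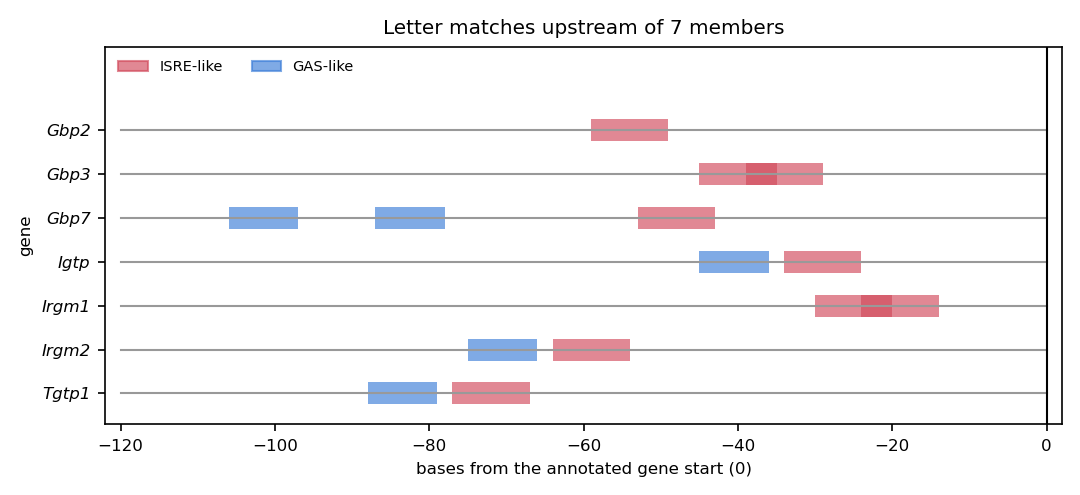
Positions of the letter matches before the annotated start in the 7 members with a window; the x axis is the distance from the start in bases, red marks the ISRE-like and blue the GAS-like pattern, and darker red marks overlapping matches. The ISRE-like matches begin between 77 bases (Tgtp1) and 24 bases (Irgm1) before the start, and in Tgtp1, Igtp and Irgm2 a GAS-like match lies directly before one.

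The 9 genes differed widely in level on the TPM scale. Iigp1 stood highest in every group, at 161 ± 12.5 TPM in NAC_HFD, 172 ± 24.8 TPM in HFD and 115 ± 10.3 TPM in NFD (SD, n = 4 each), and made up 46.4% to 58.8% of the summed TPM of the 9 genes in a library. Irgm1 came next, at 55.9 ± 8.82, 69.5 ± 14.2 and 54.4 ± 9.69 TPM in NAC_HFD, HFD and NFD, with ranges that did not meet those of Iigp1 or of the genes below it. Igtp and Irgm2 followed with overlapping ranges, between 19.07 and 50.1 TPM over all libraries. Gbp7, Gbp6 and Gbp3 formed the next step, each overlapping the next in every group. Gbp2 and Tgtp1 were the lowest and overlapped each other in every group, with Tgtp1 between 0.78 and 3.18 TPM. The 4 guanylate-binding proteins summed to 19.4 to 26.2 TPM per library in NAC_HFD, 21.6 to 46.2 TPM in HFD and 10.6 to 18.8 TPM in NFD.

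One library stood apart for these genes. HFD replicate 1 was the highest of the 12 libraries in all 9 of them, while it was the highest in 8.84% of all tested genes. Its 9 genes summed to 431.0 TPM, against 336.3, 306.0 and 282.9 TPM in HFD replicates 2 to 4, 272.8 to 310.6 TPM in NAC_HFD and 207.0 to 255.1 TPM in NFD. Its level over the mean of the other 3 HFD libraries ran from 1.26 (Iigp1) to 2.29 (Tgtp1). The other 3 HFD libraries still had larger sums than every NFD library. This did not hold with Iigp1 left out of the sum, where HFD replicate 3 had 135.5 TPM and NFD replicate 3 had 136.8 TPM. The fold changes of the 9 genes in HFD against NFD and in NAC_HFD against HFD are therefore also given without HFD replicate 1.

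**Figure D2:**
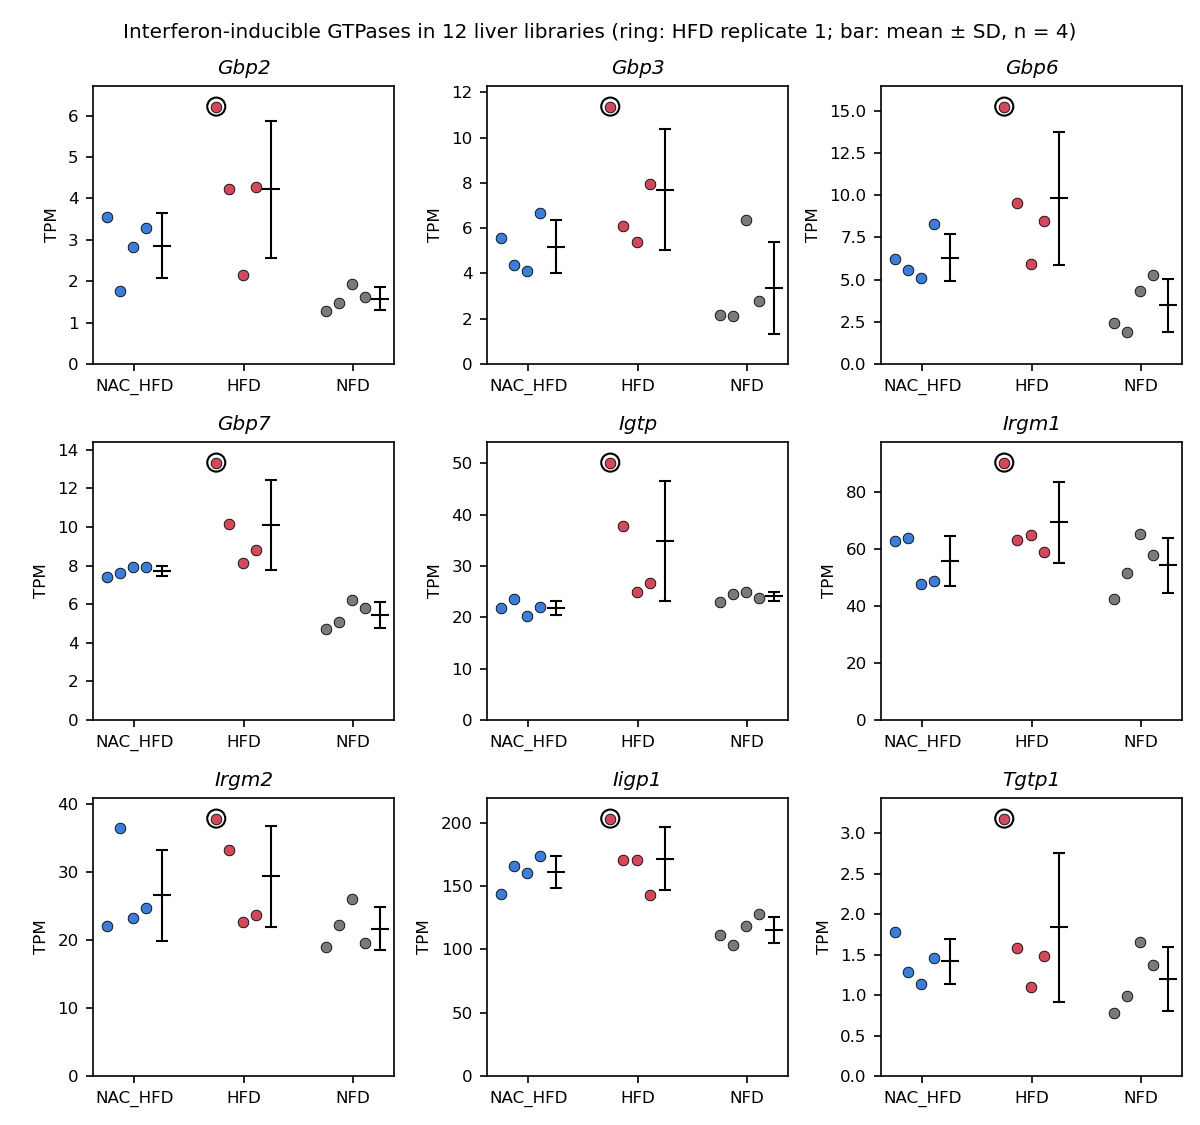
TPM of each of the 9 genes (y axis, from 0) in the 4 libraries of NAC_HFD, HFD and NFD (x axis); dots are libraries, the ring marks HFD replicate 1, and bars are the mean ± SD of 4 libraries. The ringed library is the highest in all 9 panels, and the HFD dots lie wholly above the NFD dots for Gbp2, Gbp6, Gbp7 and Iigp1.

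The effect of the high fat diet was read from HFD against NFD. Gbp2, Gbp6, Gbp7 and Iigp1 rose, with ratios of mean TPM between 1.49 (Iigp1) and 2.82 (Gbp6), and the other 5 genes had positive fold changes that did not pass the test. The test was limma on log2(TPM + 1) over all 12 libraries, two-sided, with p-values adjusted by Benjamini and Hochberg over all tested genes and a threshold of 0.05. It called 4 of 9 members higher and 0 lower, where 2.19% of all tested genes were called higher and 2.78% in either direction. Groups that did not overlap, with HFD above NFD, were seen in the same 4 members and in 7.78% of all tested genes. The median log2 fold change of the 9 genes was 0.56, against 0.01 for all tested genes, and all 9 were positive, as were 52.7% of all tested genes. By family, the median was 1.0 for the 4 guanylate-binding proteins and 0.40 for the 5 immunity-related GTPases; this difference between families was not tested.

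Among the guanylate-binding proteins, Gbp7 (chr3:142530336-142550151) had 13.34, 10.15, 8.13 and 8.80 TPM in HFD livers, against 4.72, 5.08, 6.22 and 5.79 TPM in NFD livers. Every HFD library lay above every NFD library. The log2 fold change was 0.77 ± 0.13 (SE; limma adjusted p = 0.00895), and it was 0.64 without HFD replicate 1 (adjusted p = 0.0220). Gbp7 was called in each of the 12 fits that left out 1 library, and was the only member of which this held.

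Gbp6 (chr5:105270702-105295871) had 15.25, 9.56, 5.94 and 8.48 TPM in HFD, against 2.44, 1.89, 4.30 and 5.28 TPM in NFD. The groups did not overlap, though HFD replicate 3 lay near NFD replicate 4. Its log2 fold change of 1.27 ± 0.28 (SE; limma adjusted p = 0.0337) was the largest of the 9, and without HFD replicate 1 it was 1.05 and no longer passed (adjusted p = 0.0889). Gbp6 and its close paralog Gbp10 may share reads.

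Gbp2 (chr3:142620663-142638008) is a vacuole-targeting guanylate-binding protein in mouse macrophages and had 6.22, 4.22, 2.16 and 4.27 TPM in HFD, against 1.28, 1.48, 1.94 and 1.63 TPM in NFD. The lowest HFD value lay just above the highest NFD value. The log2 fold change was 0.96 ± 0.22 (SE; limma adjusted p = 0.0321), and 0.78 without HFD replicate 1 (adjusted p = 0.101). The calls of Gbp2 and Gbp6 were also lost when HFD replicate 2 or 4, or NFD replicate 1 or 2, was left out, and that of Gbp2 without NFD replicate 4, with adjusted p up to 0.103.

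Gbp3 (chr3:142560016-142573213) had 11.37, 6.08, 5.38 and 7.96 TPM in HFD, against 2.15, 2.13, 6.37 and 2.79 TPM in NFD. NFD replicate 3 lay above 2 of the HFD libraries, so the groups overlapped. The log2 fold change of 1.05 ± 0.28 (SE) did not pass (limma adjusted p = 0.0667), and of the 12 fits that left out 1 library it passed only in that without NFD replicate 3 (1.33, adjusted p = 0.0102). Without HFD replicate 1 it was 0.86 (adjusted p = 0.176), the highest adjusted p of the 12.

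Of the immunity-related effectors, Iigp1 (chromosome 18), whose protein disrupts the vacuole of Toxoplasma, had 203.14, 170.41, 170.46 and 142.55 TPM in HFD, against 111.07, 103.67, 118.32 and 127.75 TPM in NFD. The groups did not overlap. Its log2 fold change was 0.56 ± 0.11 (SE; limma adjusted p = 0.0197), and 0.48 without HFD replicate 1 (adjusted p = 0.0764). The call was also lost without HFD replicate 2 (adjusted p = 0.0557) or NFD replicate 1 (adjusted p = 0.0570). Since Iigp1 has the highest level of the 9, its difference of mean level was larger in TPM than that of the other 8 genes, although its fold change was the fifth of 9.

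Tgtp1 (chr11:48985329-48992246), the other effector, had 3.18, 1.58, 1.10 and 1.48 TPM in HFD, against 0.78, 0.99, 1.66 and 1.37 TPM in NFD. Apart from HFD replicate 1, the values of the groups overlapped. Its log2 fold change was 0.33 (95% interval -0.08 to 0.74; limma adjusted p = 0.366), and 0.13 without HFD replicate 1. Its reads may be shared with the near-identical Tgtp2.

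Of the 3 regulators, Igtp (chr11:58199556-58207592) had 50.1, 37.68, 24.95 and 26.64 TPM in HFD, against a narrow 23.04, 24.59, 24.95 and 23.69 TPM in NFD. HFD replicates 1, 2 and 4 stood above the NFD range, and replicate 3 equalled its highest value. The log2 fold change was 0.46 (95% interval 0.10 to 0.82; limma adjusted p = 0.154), and 0.27 without HFD replicate 1.

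Irgm1 (chr11:48865245-48871420), which is needed in mice to resist many intracellular bacteria, had 90.5, 63.33, 65.13 and 59.05 TPM in HFD, against 42.48, 51.77, 65.31 and 58.07 TPM in NFD. Irgm2 (chr11:58214977-58222783) had 37.92, 33.33, 22.70 and 23.70 TPM in HFD, against 19.07, 22.26, 26.01 and 19.54 TPM in NFD. The groups overlapped in both genes. Their log2 fold changes were 0.34 for Irgm1 (limma adjusted p = 0.256) and 0.40 for Irgm2 (limma adjusted p = 0.257), and without HFD replicate 1 they were 0.21 and 0.27.

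**Figure D3:**
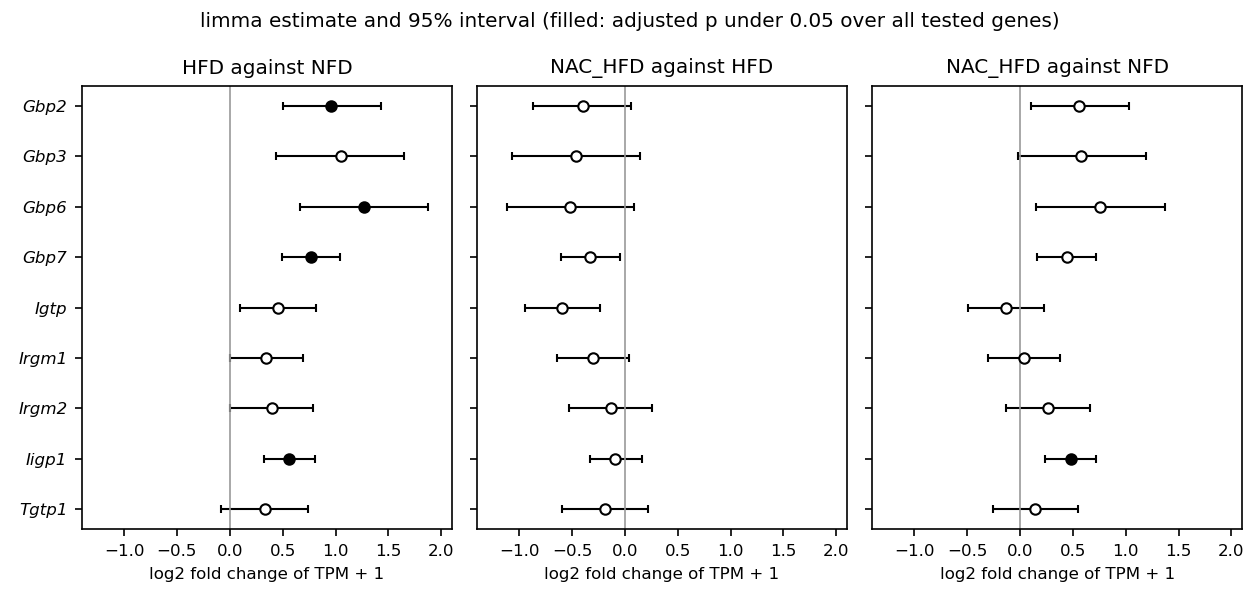
Log2 fold changes of TPM + 1 (x axis) of the 9 genes (y axis) in the 3 comparisons; points are limma estimates, bars 95% intervals, and filled points passed the adjusted threshold of 0.05 over all tested genes. In HFD against NFD all 9 estimates lie above 0 and 4 are filled; in NAC_HFD against HFD all lie below 0 and none is filled; in NAC_HFD against NFD only Iigp1 is filled.

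The effect of N-acetylcysteine on the high fat diet was read from NAC_HFD against HFD. No member passed the test, and neither did any of the 11376 tested genes (0.00%); 1870 genes (16.4%) had an unadjusted limma p under 0.05. All 9 log2 fold changes were negative, between -0.60 (Igtp) and -0.09 (Iigp1), with a median of -0.33, against -0.08 for all tested genes, of which 68.5% were negative. Unadjusted p-values under 0.05 with a lower value in NAC_HFD were found for Igtp and Gbp7, and for 13.9% of all tested genes. The HFD libraries serve here and in HFD against NFD, so the signs of these fold changes are not independent of those above. Kupffer cell markers, which mark the liver's resident macrophages, had mostly negative log2 fold changes too: 12 of 14 were below 0, with a median of -0.71, and 9 of 14 had an unadjusted p under 0.05. The part of these cells in the GTPase fold changes was not tested.

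Igtp had 21.73, 23.62, 20.23 and 21.92 TPM in NAC_HFD, against the 50.1, 37.68, 24.95 and 26.64 TPM of HFD. Gbp7 had 7.40, 7.62, 7.91 and 7.91 TPM in NAC_HFD, against 13.34, 10.15, 8.13 and 8.80 TPM in HFD. In both genes every NAC_HFD library lay below every HFD library, as in 8.66% of all tested genes. The log2 fold changes were -0.60 ± 0.17 for Igtp (SE; limma adjusted p = 0.118) and -0.33 ± 0.13 for Gbp7 (SE; limma adjusted p = 0.233), and without HFD replicate 1 they were -0.41 and -0.20.

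The NAC_HFD values of Gbp7 were also the least spread of the guanylate-binding proteins, with an SD of 3.21% of the mean, against 22.9% in HFD and 12.4% in NFD. Gbp2 had 3.56, 1.77, 2.82 and 3.29 TPM in NAC_HFD. Gbp3 had 5.56, 4.39, 4.11 and 6.68 TPM there, and Gbp6 had 6.21, 5.59, 5.12 and 8.29 TPM. Each of these 3 genes overlapped its HFD range, with log2 fold changes of -0.40 (95% interval -0.87 to 0.06), -0.46 (-1.07 to 0.14) and -0.52 (-1.12 to 0.09). Without HFD replicate 1 they were -0.22 for Gbp2, -0.28 for Gbp3 and -0.30 for Gbp6.

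Iigp1 had 143.93, 165.62, 160.37 and 173.43 TPM in NAC_HFD, inside the span of the HFD values. Its log2 fold change was -0.09 (95% interval -0.33 to 0.16; limma adjusted p = 0.747), and it turned to 0.02 when the libraries were scaled by medians of ratios. Without HFD replicate 1 it was -0.00. A fall as large as its rise of 0.56 in HFD lies outside this interval. Irgm1 had 62.91, 64.17, 47.86 and 48.74 TPM in NAC_HFD, with a log2 fold change of -0.30 (95% interval -0.64 to 0.04), and -0.17 without HFD replicate 1. Irgm2 had 22.03, 36.59, 23.23 and 24.73 TPM, with replicate 2 near the highest HFD library, and a log2 fold change of -0.13 (-0.53 to 0.26), which was -0.00 without HFD replicate 1. Tgtp1 had 1.78, 1.28, 1.14 and 1.46 TPM, and its log2 fold change of -0.19 (-0.60 to 0.22) turned to 0.02 without HFD replicate 1.

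Set against NFD, NAC_HFD livers had a higher level of Iigp1, the 1 member that passed, with a log2 fold change of 0.48 ± 0.11 (SE; limma adjusted p = 0.0291) and no overlap between the 143.93 to 173.43 TPM of NAC_HFD and the 103.67 to 127.75 TPM of NFD. The count of 1 of 9 stands beside 1.76% of all tested genes called higher and 5.28% called in either direction. The call was lost in 6 of the 12 fits that left out 1 library, those without NAC_HFD replicate 2, 3 or 4 or NFD replicate 1, 2 or 3, with adjusted p of 0.0526 to 0.0843. The median log2 fold change of the 9 genes was 0.44, against -0.07 for all tested genes.

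Gbp7 also had no overlap between NAC_HFD and NFD, as had 3.52% of all tested genes with NAC_HFD higher, but it did not pass (0.44 ± 0.13 SE; limma adjusted p = 0.0645). It was called without HFD replicate 1 (adjusted p = 0.0368). Gbp2, Gbp3 and Gbp6 had log2 fold changes of 0.56, 0.58 and 0.76, with limma adjusted p between 0.135 and 0.239. Irgm1 and Igtp lay closest to NFD, at 0.04 and -0.13, and the sign of Irgm1 turned in 3 of the 12 fits that left out 1 library. Irgm2 and Tgtp1 stood at 0.26 and 0.14.

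Asked whether any of the 3 groups differed, limma's F test called Gbp7 (adjusted p = 0.0143), Iigp1 (0.0216), Gbp2 (0.0434) and Gbp6 (0.0445), and 5.66% of all tested genes. Igtp, whose 3 group means were 21.9, 34.8 and 24.1 TPM in NAC_HFD, HFD and NFD, had an adjusted p of 0.0828 in the same test.

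The 9 genes varied together from library to library. The 36 pairs of members had Pearson correlations of log2(TPM + 1) over the 12 libraries between 0.48 and 0.94, with a median of 0.72. After each group's mean was subtracted, all 36 were still positive, between 0.21 and 0.90 with a median of 0.65. These are descriptions of 12 libraries that share their scaling, and HFD replicate 1 weighs in each of them. In the mean standardised level of the 9 genes, HFD replicate 1 stood at 2.02 SD and HFD replicate 3 at 0.00, while NFD replicates 1 and 2 were the lowest at -1.33 and -1.09.

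**Figure D4:**
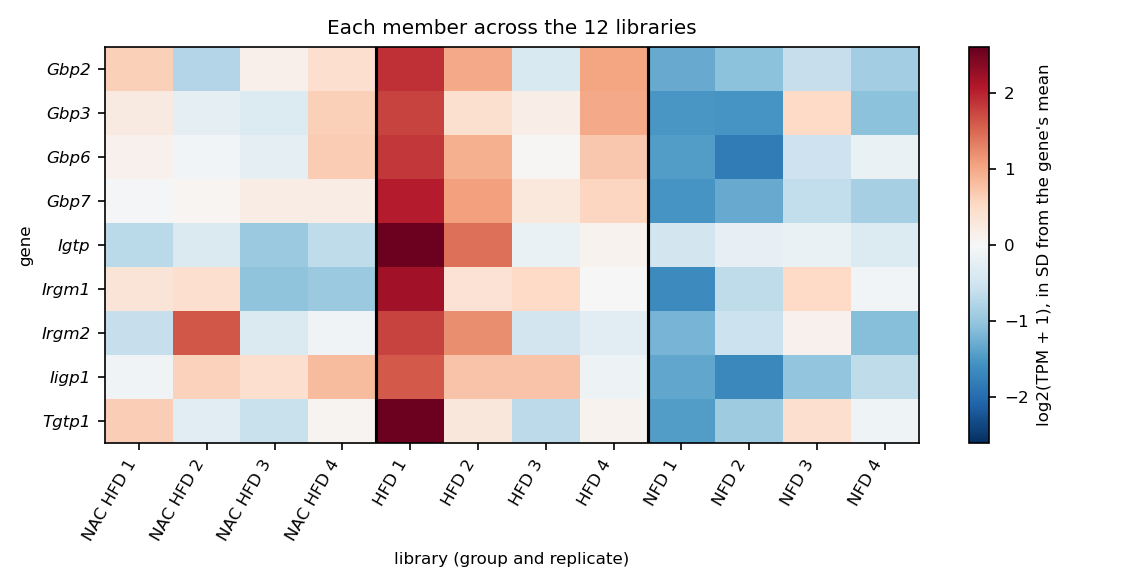
log2(TPM + 1) of each gene (rows) in each library (columns, grouped as NAC_HFD, HFD and NFD), shown in SD from the gene's mean over 12 libraries. HFD replicates 1 and 2 lie above the gene's mean in all 9 rows, and NFD replicates 1, 2 and 4 below it in all 9.

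Among the genes most like that mean level over the 12 libraries, outside the 9, were Zbp1 (r = 0.946, rho = 0.902), Herc6 (r = 0.946, rho = 0.895), Ifi44 (r = 0.944, rho = 0.881), Ifit3 (r = 0.940, rho = 0.860) and Stat3 (r = 0.938, rho = 0.860). Zbp1 is a sensor of Z-form nucleic acids, Herc6 the main ISG15 ligase of the mouse, and Stat3 a transcription factor of cytokine receptors. Without HFD replicate 1 these correlations were between 0.885 (Zbp1) and 0.929 (Herc6). Ranked by Spearman's rho, the first 6 were Psmb8, Nfe2l1, Copz2, Csprs, Psmb9 and Cxcl9, so that 0 of the first 6 by Pearson's r were among them. With group means subtracted, the first 6 by Pearson's r were Ifit2, Slc37a1, Lipe, Cxcl10, Helz2 and Zbp1, from 0.964 to 0.906. With group means kept and HFD replicate 1 left out, r was 0.011 for Helz2, 0.288 for Lipe and 0.571 for Cxcl10. It was 0.779 for Slc37a1, 0.835 for Ifit2 and 0.885 for Zbp1.

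Other genes of the family were compared in the same fit. Of 27 other listed interferon-inducible GTPases, 18 were in the gene table and 15 were tested. Of the 15, 2 were called higher in HFD than in NFD and 0 lower, where 2.19% of all tested genes were called higher. Gbp10, the paralog of Gbp6, had 24.53, 11.17, 9.10 and 13.31 TPM in HFD, against 3.12, 2.22, 2.13 and 6.73 TPM in NFD. Its log2 fold change was 1.78 ± 0.36 (SE; limma adjusted p = 0.0263), and 1.51 without HFD replicate 1 (adjusted p = 0.0720). The call of Gbp10 was kept in 6 of the 12 fits that left out a library, and lost without HFD replicate 1, 2 or 4 or NFD replicate 1, 2 or 3. Gm4951, an immunity-related GTPase gene, had 72.83, 73.82, 63.71 and 60.03 TPM in HFD, against 47.36, 54.98, 45.24 and 50.33 TPM in NFD (0.44 ± 0.10 SE; limma adjusted p = 0.0310). It kept this call in 7 of the 12 fits, and lost it without HFD replicate 1 (0.40, adjusted p = 0.116), HFD replicate 2 or NFD replicate 1, 3 or 4. The median log2 fold change of the 15 was 0.36. Other members of the family sat near 0 in HFD against NFD, such as Gbp4 (-0.01) and Gbp8 (0.16).

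The pathway above these GTPases was given by 18 listed genes of interferon gamma signalling, of which 14 were tested. None was called in any of the 3 comparisons by limma at the adjusted threshold. In HFD against NFD 2 of the 14 had an unadjusted p under 0.05, both higher, where 19.1% of all tested genes had in either direction. In NAC_HFD against HFD 4 had, all lower, as had 13.9% of all tested genes with a lower value. In NAC_HFD against NFD 3 had, and the share of all tested genes is not given here, so this count has no background. One of the 2 in HFD against NFD was Ptpn6, a phosphatase that restrains the pathway, with 11.68, 12.44, 11.29 and 14.06 TPM in HFD, against 7.69, 7.5, 11.44 and 8.67 TPM in NFD (0.46 ± 0.13 SE, limma adjusted p = 0.0811). Irf1, a transcription factor induced by interferon gamma, had a log2 fold change of 0.04 in HFD against NFD and of -0.61 in NAC_HFD against HFD (limma adjusted p = 0.186). The receptor chains Ifngr1 and Ifngr2 had 0.15 and 0.21 in HFD against NFD. Ifng itself, the ligand, was listed at 0 in 8 of the 12 libraries and reached at most 0.56 TPM, in NFD replicate 2.

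Among 14 tested interferon gamma target genes, 1 was called higher in HFD than in NFD, where 2.19% of all tested genes were. Of the 14 log2 fold changes, 13 were above 0 (median 0.35), as were 52.7% of all tested genes. The called gene was Psmb8, an immunoproteasome subunit, with 25.74, 18.93, 17.33 and 23.71 TPM in HFD, against 10.61, 11.93, 17.10 and 11.80 TPM in NFD (0.70 ± 0.15 SE; limma adjusted p = 0.0235). Its call was lost in 4 of the 12 fits that left out a library, those without HFD replicate 1 (0.61, adjusted p = 0.0862) or 4 or NFD replicate 1 or 4. Psmb9, its partner subunit, had 0.95 ± 0.24 (SE; limma adjusted p = 0.0514), and B2m, the light chain of MHC class I, had 0.39 ± 0.11 (SE; limma adjusted p = 0.0701). The chemokine Cxcl9 had 1.2 ± 0.35 (SE; limma adjusted p = 0.0889).

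Of 28 tested genes of the type I interferon response, 27 lay above 0 in HFD against NFD (median log2 fold change 0.57), as did 52.7% of all tested genes. Over the 30 listed genes, HFD replicates summed to 615, 472, 463 and 509 TPM, and NFD replicates to 305, 315, 518 and 390 TPM. NFD replicate 3 thus lay above every HFD library but replicate 1. Against 2.19% of all tested genes, 1 of the 28 was called higher. This was Zbp1, with 19.37, 9.70, 8.19 and 9.24 TPM in HFD, against 3.49, 3.24, 5.20 and 4.27 TPM in NFD (1.26 ± 0.23 SE; limma adjusted p = 0.0141). Zbp1 was called in all 12 fits that left out a library, with 1.01 without HFD replicate 1 (adjusted p = 0.0168). The next smallest p-values belonged to Oas1a (0.72; limma adjusted p = 0.0526) and Irf7 (0.70; limma adjusted p = 0.0546). In NAC_HFD against HFD all 28 were negative, as were 68.5% of all tested genes, with a median of -0.43 and 0 calls by limma. An unadjusted limma p under 0.05 was found for 10 of them, and with a lower value for 13.9% of all tested genes. HFD replicate 1 was the highest library in 17 of the 28, in 9 of the 14 interferon gamma targets and in 6 of the 15 other GTPases. It was the highest in 8.84% of all tested genes.

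Few genes that act with these GTPases passed the test. Of 15 genes of autophagy conjugation, which loads GTPases onto vacuoles, 0 were called in HFD against NFD by limma, and 4 had an unadjusted p under 0.05, as had 19.1% of all tested genes. Their median log2 fold change was 0.10. The smallest p-values in HFD against NFD belonged to Gabarapl1 (0.39, limma adjusted p = 0.103), Map1lc3b (0.29, limma adjusted p = 0.112) and Atg16l1 (-0.34, limma adjusted p = 0.128). In NAC_HFD against NFD the autophagy receptor Sqstm1 was lower, at 180.27, 147.16, 173.95 and 185.6 TPM in NAC_HFD, against 218.2, 200.94, 324.1 and 235.45 TPM in NFD (-0.49 ± 0.13 SE; limma adjusted p = 0.0490). It kept this call in 1 of the 12 fits that left out a library, the one without NFD replicate 2, with adjusted p of 0.0626 to 0.101 in the others. Of 5 tested inflammasome and pyroptosis genes, none was called in HFD against NFD and 0 had an unadjusted p under 0.05. In NAC_HFD against HFD 0 were called and 3 had an unadjusted limma p under 0.05, all lower, as had 13.9% of all tested genes with a lower value. Il1b, an inflammasome substrate, was lower in NAC_HFD than in NFD, with 1.64, 0.61, 0.45 and 0.55 TPM in NAC_HFD, against 1.88, 2.21, 3.12 and 2.83 TPM in NFD (-0.98 ± 0.22 SE; limma adjusted p = 0.0253). Il1b kept this call in 7 of the 12 fits, and lost it without NAC_HFD replicate 2, 3 or 4 or NFD replicate 3 or 4 (adjusted p up to 0.0735). In NAC_HFD against HFD its log2 fold change was -1.0 ± 0.22 (SE; limma adjusted p = 0.071).

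**Figure D5:**
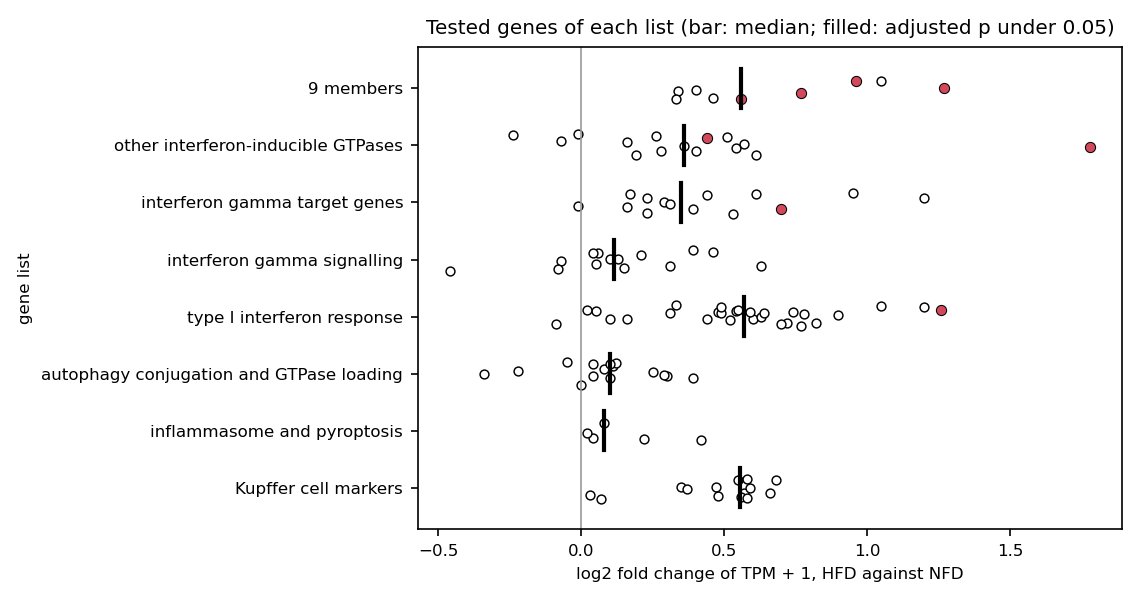
Log2 fold changes of TPM + 1 in HFD against NFD (x axis) of the tested genes in 8 lists (y axis); points are genes, filled points passed the adjusted threshold of 0.05 over all tested genes, and bars are list medians. The medians are 0.56 for the 9 members, 0.57 for the type I interferon response, 0.55 for Kupffer cell markers and 0.11 for interferon gamma signalling.

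Kupffer cell markers were also higher on average in HFD. All 14 markers were tested and none was listed at 0 throughout. Each of the 14 lay above 0 in HFD against NFD (median log2 fold change 0.55), as did 52.7% of all tested genes. Of the 14, 0 were called by limma and 5 had an unadjusted p under 0.05, as had 19.1% of all tested genes. Their summed TPM ranged over 124 to 214 in NAC_HFD, 156 to 340 in HFD and 135 to 216 in NFD. In whole liver, more cells of a type and more RNA per cell cannot be told apart.

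The library order of these markers was not that of the GTPases. HFD replicate 4 was the highest library in 12 of the 14 Kupffer markers and in 0 of the 9 GTPases, while it was the highest in 4.16% of all tested genes. HFD replicate 1 was the highest in 0 of the 14. The part of Kupffer cells in the GTPase fold changes was not tested. Of 10 markers of monocyte-derived macrophages 3 were tested, and 1, Plac8, was called higher in HFD than in NFD (0.90 ± 0.18 SE; limma adjusted p = 0.0185), a call lost without HFD replicate 1 (0.79, adjusted p = 0.0715) or 2 (adjusted p = 0.0545). The list summed to 13.9 to 29.7 TPM in NAC_HFD, 20.7 to 43.9 TPM in HFD and 17.0 to 26.9 TPM in NFD, and its part was not tested either.

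T and NK cells, the main sources of interferon gamma, left little RNA: 14 of 16 listed markers were in the table and summed to 5.02 to 7.68 TPM in NAC_HFD, 3.73 to 6.30 TPM in HFD and 3.89 to 5.06 TPM in NFD, and only Klrk1 passed the floor. B and plasma cell markers summed to 1.75 to 4.53 TPM over all libraries and neutrophil markers to 1.32 to 4.83 TPM. Of 2 tested dendritic cell markers, Zbtb46 was lower in NAC_HFD than in NFD (-0.49 ± 0.13 SE; limma adjusted p = 0.0374). Zbtb46 kept this call in 4 of the 12 fits that left out a library, those without NAC_HFD replicate 1, HFD replicate 2 or NFD replicate 2 or 3, with adjusted p up to 0.0959 in the others. Its log2 fold change was -0.47 in HFD against NFD (limma adjusted p = 0.0584) and -0.02 in NAC_HFD against HFD. Clec9a, the other tested marker, had 0.15 in NAC_HFD against NFD and 0.38 in HFD against NFD (limma adjusted p = 0.582 and 0.181). No marker of sinusoidal endothelium (8 tested), stellate cells (8), cholangiocytes (2) or hepatocytes (8) was called by limma in any of the 3 comparisons, and in HFD against NFD 1, 1, 1 and 4 of them had an unadjusted p under 0.05, as had 19.1% of all tested genes. The hepatocyte markers summed to 36500 to 57000 TPM.

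At the level of transcripts, the deposited table of mRNA transcripts held 24 entries for the 9 genes, and each gene's TPM equalled their sum, with the noncoding transcript of Gbp6 added, within 0.05 TPM. Of these, 2 transcripts of Tgtp1 were listed at 0 in every library and 20 transcripts were tested on log2(TPM + 0.1). None was called in any comparison by limma, while 10, 2 and 6 of the 20 had an unadjusted p under 0.05 in HFD against NFD, NAC_HFD against HFD and NAC_HFD against NFD. The share of all tested transcripts with an unadjusted p under 0.05 was not taken, so these counts have no background here. At the adjusted threshold, the same test called 0.205% of all tested transcripts in HFD against NFD, 0.0192% in NAC_HFD against HFD and 0.404% in NAC_HFD against NFD. The smallest adjusted p in HFD against NFD was 0.0789, for ENSMUST00000045097 of Gbp7 (7.03 ± 2.11 TPM in HFD, against 3.60 ± 0.386 TPM in NFD; SD, n = 4 each).

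The TPM of Iigp1 came from 3 transcripts. Transcript ENSMUST00000032473 averaged 53.7 ± 16.9 TPM in NAC_HFD, 82.4 ± 11.4 TPM in HFD and 49.5 ± 6.65 TPM in NFD (SD, n = 4 each). Transcript ENSMUST00000066912 averaged 85.8 ± 8.01, 85.6 ± 12.7 and 60.7 ± 13.5 TPM in NAC_HFD, HFD and NFD. In NAC_HFD against HFD the log2 fold changes were -0.66 (limma adjusted p = 0.348) for ENSMUST00000032473 and 0.01 for ENSMUST00000066912. The rest came from ENSMUST00000237185, which had 22.42, 0, 9.11 and 54.2 TPM in NAC_HFD, 8.38, 0, 0 and 6.04 TPM in HFD, and 0, 7.07, 12.77 and 0 TPM in NFD. How reads were divided between these transcripts is an estimate made by the authors.

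The authors' deposited table of HFD against NFD listed 4 transcripts of these genes among its 1110, all as up, as were 696 of the 1110. None of the 4 came from Gbp7 or Iigp1. In the authors' deposited table the fold was 3.21 for Gbp6 (adjusted p = 0.000531), 2.70 for Gbp2 (adjusted p = 0.00202), 3.84 for Gbp3 transcript ENSMUST00000106222 (adjusted p = 0.116) and 3.8 for the minor Igtp transcript ENSMUST00000094169 (adjusted p = 0.158). The authors' deposited table of NAC_HFD against HFD listed 0 transcripts of the 9 genes among its 942.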

How the data were processed

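Liver total RNA was sequenced in 12 libraries. Per the submitters' processing notes, fastp, HISAT and RSEM were used with build GRCm38 (versions and settings not given in the sources used here). Deposited gene and transcript tables hold TPM made by the authors, which keep no depth, so precision could only be taken from the 4 libraries of a group. The authors' deposited comparison tables hold, for each transcript, a fold ratio, its log2, a p-value and an adjusted p-value (test: not given in the sources used here).

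Values were put on log2(TPM + 1) for genes (floor 1 TPM in at least 4 libraries, 11376 of 19252 tested) and log2(TPM + 0.1) for mRNA transcripts (floor 0.1 TPM in at least 4, 31185 tested). Fold changes on this scale understate the change of low genes. With limma 3.58.1 in R 4.3.3, 3 group means were estimated from all 12 libraries together (lmFit, eBayes with trend and robust; 9 residual degrees of freedom), two-sided, adjusted by Benjamini and Hochberg over the whole table, threshold 0.05. The procedure was tested on simulated data. The labels give no batch. The members and gene lists were chosen with earlier results of these data known. All 9 members are named in every comparison. Of each list, genes past the threshold are named. Of the up to 3 genes of each list with the smallest p in HFD against NFD, only some are named. Other genes named from the lists were chosen after their values were seen. Likeness was ranked over tested genes outside the 9, without predicted and clone-named genes. A gene that these rules name is not reported here. Reads of close paralogs (Gbp6 and Gbp10, Tgtp1 and Tgtp2) may have been split between them. Sequences and gene positions come from RefSeq tables of GRCm38.p6, searched with Python 3.11.15. Alternatives covered the pseudocount, floor, scaling, moderation, replicate block, libraries fitted and leaving out each library.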

Additional observations from a re-analysis of the deposited data

Results flagged for a closer look

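In the NFD group, Gbp3 had 6.37 TPM in replicate 3, against 2.13 to 2.79 TPM in the other 3 libraries. The gap is 0.844 of the group's range, above Dixon's critical value for 4 libraries. Without NFD replicate 3, Gbp3 passed in HFD against NFD (log2 fold change 1.33, limma adjusted p = 0.0102) and in NAC_HFD against NFD (0.87, limma adjusted p = 0.0475). Values of 27 groups of 4 were examined, and chance flags about 1 in 20.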

How the results depend on the processing

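With no floor, 2 members were called in HFD against NFD (4 with the floor), 0 in NAC_HFD against NFD (1 with it) and 2 in the F test (4 with it). Fitting the 2 compared groups alone left 0 in NAC_HFD against NFD, where median-of-ratios scaling and quantile normalization gave 2 each, Gbp7 joining Iigp1. Rescaling within the gene table gave 2 in the F test.

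Over all genes, HFD against NFD had 316 calls (249 higher, 67 lower), 168 with no floor; the split was 190 to 101 when rescaled and 259 to 160 with quantile normalization. NAC_HFD against HFD had 0, and 24 with pseudocount 5. NAC_HFD against NFD had 601 (200 higher, 401 lower), 289 with no floor and 195 with the 2 groups alone; the split was 371 to 250 with median-of-ratios scaling and 314 to 294 with quantile normalization. The F test had 644, and 292 with no floor. Transcript calls were 6 in NAC_HFD against HFD (2 with pseudocount 1) and 126 in NAC_HFD against NFD (76 with no floor). No scaling moved the median of all genes by over 0.1.

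The replicate numbers did not pair the libraries: 2 of 12 same-number pairs had a correlation of deviations over 0.1, against 8 of 36 other pairs. With the replicate block, members called were 1 in HFD against NFD (Gbp7), 0 in NAC_HFD against NFD and 1 in the F test. Gene calls with the block were 225, 3, 406 and 357 in HFD against NFD, NAC_HFD against HFD, NAC_HFD against NFD and the F test. Transcript calls with the block were 13, 3 and 4 in HFD against NFD, NAC_HFD against HFD and NAC_HFD against NFD.

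Leaving out 1 library at a time gave 1 to 5 members in HFD against NFD, 0 to 2 in NAC_HFD against NFD and 1 to 5 in the F test. Gene calls ranged over 89 to 377, 0 to 64, 212 to 619 and 216 to 678, in the order HFD against NFD, NAC_HFD against HFD, NAC_HFD against NFD and F test, and transcript calls over 6 to 91, 1 to 15 and 13 to 164 in the 3 comparisons. Signs turned for Iigp1 in NAC_HFD against HFD (0.02, median-of-ratios scaling), for Tgtp1 in the same comparison (-0.32 to 0.02 over these fits, above 0 without HFD replicate 1) and for Irgm1 in NAC_HFD against NFD (-0.07 to 0.13, below 0 without NFD replicate 1, NAC_HFD replicate 1 or NAC_HFD replicate 2). The cause of these changes was not tested. Read depth is unknown and sets no stated limit.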

Other observations

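Among the guanylate-binding proteins outside the 9, some followed another library order than the diet. Gbp11 had 8.97, 24.21, 3.12 and 11.12 TPM in NAC_HFD, 15.1, 4.40, 3.31 and 2.29 TPM in HFD, and 10.17, 2.69, 2.02 and 18.01 TPM in NFD. Its highest libraries were thus NAC_HFD replicate 2, HFD replicate 1 and NFD replicate 4. Gbp8 was highest in the same library of each group, with 4.09 TPM in NAC_HFD replicate 2, 3.29 TPM in HFD replicate 1 and 3.60 TPM in NFD replicate 4. Gbp4 was also highest there, with 5.55, 5.76 and 5.66 TPM in those 3 libraries. The noncoding transcript ENSMUST00000199944 of Gbp6 had 1.72, 1.89 and 1.48 TPM in the same 3, its highest in each group. These genes were picked after their values were seen, and no test was made.

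Gbp2b did not pass the floor. It had 0.61, 0.72, 0.33 and 0.58 TPM in NAC_HFD, 1.29, 1.39, 0.58 and 1.63 TPM in HFD, and 0.35, 0.29, 0.40 and 0.56 TPM in NFD, so that every HFD library lay above every NFD library. Gbp5, likewise under the floor, was highest in HFD replicate 1 at 1.77 TPM.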
